A study of Homo sapiens with 20 samples.

Results

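The genes described here make cholesterol from acetyl-CoA, regulate the SREBP transcription factors that drive this synthesis, or move and store the product. They were taken by name from a list of 30 genes, which was drawn up with earlier results of these data known. Of the 30, 28 had a probe set that names them alone and all 28 passed the filter on low values, out of 13787 genes tested. FDFT1 and CYP51A1 are named only, since no probe set could be assigned to either of them alone. The 28 genes were read by 60 probe sets. The arrays hold RNA of 5 human cell lines of T cell acute lymphoblastic leukaemia (T-ALL), each a single established line, so the average below describes these 5 lines. The lines were T-ALL1 (listed as JCRB0086 [TALL-1]), CEM (JCRB0033 [CEM]), KOPT-K, DND41 (ACC525 [DND41]) and HPB-ALL (ACC483 [HPB-ALL]). Cells were kept for 16 h with either a control peptide or NBD, the NEMO-binding domain peptide, and each line and peptide has 2 arrays. The NBD peptide interferes with the binding of NEMO (IKKγ) to the catalytic IKK subunits and so blocks canonical NF-kB activity, and the study asks what it does to transcript levels. The labels give the dose as 100 µM in the descriptions and as 100 mM in the source names. Whether a group's 2 arrays stem from separate cultures is not given in the labels, so p-values here reflect only the spread between arrays, which may be technical.

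Cholesterol is built from acetyl-CoA through mevalonate and isoprenoid intermediates to squalene, and then through a series of sterols. SREBP-2, the product of SREBF2, and SREBP-1, the product of SREBF1, are transcription factors held in the endoplasmic reticulum by SCAP and the INSIG proteins while sterols are plentiful. When sterols fall, SCAP escorts them to the Golgi, the site-1 and site-2 proteases (MBTPS1 and MBTPS2) release their active part, and synthesis genes, INSIG1 and SREBF2 itself are transcribed. Growing and activated lymphocytes use this route for membrane synthesis.

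The arrays fell into 2 sets of columns of different form, T-ALL1 with KOPT-K and CEM with DND41 and HPB-ALL, so levels were compared only within a set while each NBD effect lies within one. Arrays of the same group correlated at 0.992 to 0.998 across genes, and 20 of 20 arrays correlated best with another array of their own line. As a sign of RNA integrity, actin's 3' probe set minus its 5' probe set (log2) was 2.60 ± 0.78 (SD, n = 2) in T-ALL1 with control peptide and 1.03 ± 0.06 with NBD, while the other 8 groups had means between 0.85 and 1.76. All 7 T cell markers reached the filter value in 4 lines and 6 of 7 in DND41, where CD2 did not. Their summed intensity was lower with NBD in each line, for example 14049 to 14661 against 21910 to 22702 in DND41. CD3D was the brightest of the 7 in each line and weighs most in that sum, and 4 of the 7 were not called on average by limma. In these bulk samples fewer cells of a type and less RNA per cell cannot be told apart. B cell markers other than CD79A, and myeloid and stromal or epithelial markers, lay mostly below the filter value, and CD79A was high only in DND41, where the summed B cell markers read 2862 to 2865 with control and 1158 to 1247 with NBD.

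Transcripts of cholesterol synthesis were higher after the NBD peptide. Averaged over the 5 lines, 16 of the 28 genes rose and 0 fell, while 2.24% of all genes tested were called higher and 6.14% lower. At an unadjusted p under 0.05 in limma, 18 were higher and 2, PMVK and SCAP, lower. A gene is called here when its adjusted p from limma, after Benjamini-Hochberg adjustment over all 13787 genes, is under 0.05. The median effect of the 28 genes was 0.18 on the log2 scale against -0.01 for all genes tested, so the changes were moderate, between 1.10-fold for MVK and 1.40-fold for MSMO1 among those called. By role, 6 of 8 genes of the mevalonate and isoprenoid steps rose, 7 of 9 of the sterol steps, 2 of 7 of SREBP regulation and 1 of 4 of transport and storage. Of the 16, 14 had a higher mean with NBD in all 5 lines, as 4.26% of all genes tested did. The 16 were picked by their average effect on these same arrays, so counts among them run high by design and add no further support. Of all 28 genes, 14 had both NBD arrays above both control arrays in at least 4 lines, against 2.18% of all genes tested. All 14 were among the 16. In 5 of 5 lines both NBD arrays lay above both controls for MVK, IDI1, SQLE and MSMO1, against 0.399%. For MVK the gap was very slight in 2 lines. In T-ALL1 the higher control and the lower NBD array both read 8.74 on the log2 scale, and in DND41 8.03 and 8.04. None of the 16 had both NBD arrays below both control arrays in any line. With the 5 lines as replicates, 0 genes in the whole table passed the adjusted threshold. In that fit 17 of the 28 genes were higher at an unadjusted p under 0.05 in limma, as were 3.5% of all genes tested. The 17 include all 16, whose highest p-value in that limma fit was 0.0342.

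**Figure D1:**
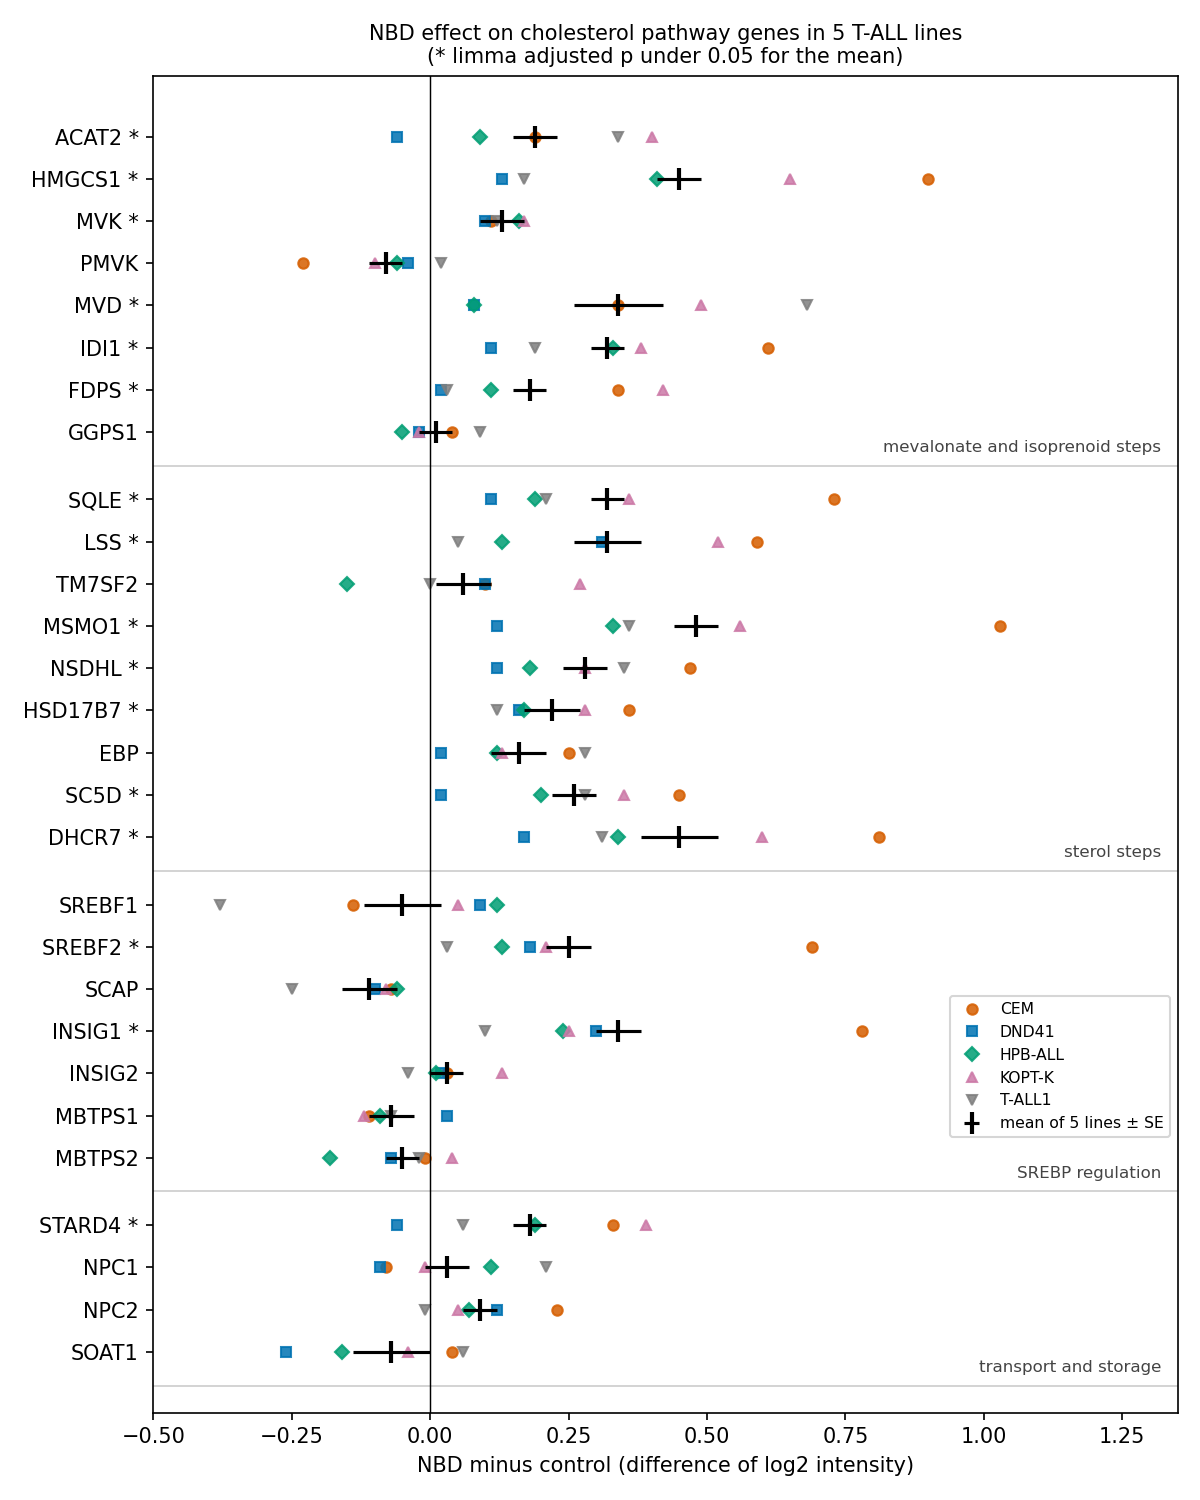
Difference of log2 intensity between NBD and control peptide for each of the 28 genes, by role: coloured symbols are the 5 lines and the black mark with its bar is the mean of the 5 ± SE. Asterisks mark the 16 genes called on average, of which MSMO1 has the largest mean, 0.48; CEM (orange circles) lies farthest to the right for 11 of them.

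The promoters of the genes that rose were read for the motifs through which SREBP factors act, a sterol element core (TCACNCCAC) and the CCAAT and GGGCGG boxes bound by NF-Y and Sp1, on both strands. The windows are RefSeq's (assembly GRCh38.p14), which hold the 250 bases before each gene's start and a short stretch after it, and 27 of the 30 genes have one. CCAAT was found in 14 of 14 called genes with a window and in 5 of 12 tested genes that were not called. It was found in 42.5% of the genes tested, 49.2% of all genes called higher and 39.7% of all genes with a window. GGGCGG was in 13 of 14 called and 10 of 12 uncalled genes, beside 73.6% of the genes tested. The sterol core was found in SREBF2 only, beside 1.5% of the genes tested, and without its first base (CACNCCAC, tried after the values were seen) also in IDI1, SC5D and INSIG1, beside 8.1%. A match is a description of the letters in this window, not a site, and its absence says nothing of the factor. The promoters shown are SREBF2 because it holds the sterol core, and 3 of the largest effects with INSIG1, picked after their values were seen. Each is the 250 bases before the gene's start, 5′ to 3′ on the gene's strand, with CCAAT (or ATTGG, the same box on the other strand) and the sterol core in capitals.
SREBF2, chr22:41832855-41833104, plus strand: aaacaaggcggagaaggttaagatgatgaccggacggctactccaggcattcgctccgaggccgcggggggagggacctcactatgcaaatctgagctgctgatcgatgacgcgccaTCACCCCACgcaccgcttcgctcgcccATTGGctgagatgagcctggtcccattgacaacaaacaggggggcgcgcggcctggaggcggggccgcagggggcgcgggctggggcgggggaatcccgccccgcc
MSMO1, chr4:165327419-165327668, plus strand: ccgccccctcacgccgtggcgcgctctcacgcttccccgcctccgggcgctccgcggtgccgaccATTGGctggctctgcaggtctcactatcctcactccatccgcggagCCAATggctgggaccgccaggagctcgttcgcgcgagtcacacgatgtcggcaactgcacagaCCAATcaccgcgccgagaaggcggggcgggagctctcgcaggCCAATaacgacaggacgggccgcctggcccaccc
HMGCS1, chr5:43313413-43313662, minus strand: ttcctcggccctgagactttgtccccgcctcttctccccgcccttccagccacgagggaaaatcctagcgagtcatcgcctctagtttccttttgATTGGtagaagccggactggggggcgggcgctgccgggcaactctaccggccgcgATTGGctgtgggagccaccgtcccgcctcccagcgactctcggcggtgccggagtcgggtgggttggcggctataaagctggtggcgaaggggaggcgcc
DHCR7, chr11:71448394-71448643, minus strand: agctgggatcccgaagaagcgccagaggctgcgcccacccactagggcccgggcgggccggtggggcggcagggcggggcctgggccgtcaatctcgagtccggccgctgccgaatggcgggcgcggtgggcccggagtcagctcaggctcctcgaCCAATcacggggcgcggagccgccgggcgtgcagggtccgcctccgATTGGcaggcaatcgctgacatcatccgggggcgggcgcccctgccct
INSIG1, chr7:155297628-155297877, plus strand: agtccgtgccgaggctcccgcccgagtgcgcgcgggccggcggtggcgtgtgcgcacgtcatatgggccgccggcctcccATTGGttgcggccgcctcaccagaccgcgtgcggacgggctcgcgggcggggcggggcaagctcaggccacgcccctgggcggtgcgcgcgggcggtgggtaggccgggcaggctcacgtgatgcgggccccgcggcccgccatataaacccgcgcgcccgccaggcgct

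In MSMO1 the 4 CCAAT boxes lay between 30 and 185 bases upstream of the start. The 2 boxes of HMGCS1 lay 96 to 155 bases upstream and the 2 of DHCR7 44 to 94 bases. INSIG1 had 1 box, at 166 to 170 bases. In SREBF2 the sterol core, TCACCCCAC, ended 125 bases upstream and its CCAAT box lay at 102 to 106 bases.

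HMGCS1, the cytosolic synthase that joins acetyl-CoA and acetoacetyl-CoA ahead of mevalonate, had the largest effect among the mevalonate and isoprenoid genes. In CEM it read log2 intensities of 8.44 and 8.52 with control peptide and 9.42 and 9.35 with NBD. DND41 gave 9.03 and 9.00 against 9.11 and 9.18, and HPB-ALL 9.59 and 9.55 against 9.98 and 9.98. KOPT-K gave 9.27 and 9.20 against 9.85 and 9.93, and T-ALL1 10.67 and 10.34 against 10.65 and 10.70. The NBD arrays stood above the controls in every line but T-ALL1, where 1 control array lay among them. The mean effect was 0.45 ± 0.04 (SE, n = 2 arrays in each group), or 1.37-fold (limma adjusted p = 2e-05).

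IDI1 interconverts the isoprenoid building blocks isopentenyl and dimethylallyl diphosphate. It read 10.48 and 10.48 with control and 11.08 and 11.10 with NBD in CEM, 10.91 and 11.03 against 11.09 and 11.07 in DND41, and 11.40 and 11.51 against 11.83 and 11.73 in HPB-ALL. In the other set it read 11.49 and 11.48 against 11.90 and 11.82 in KOPT-K and 11.82 and 11.80 against 12.00 and 12.01 in T-ALL1. No NBD array overlapped a control array in any line. The mean effect was 0.32 ± 0.03 (limma adjusted p = 2.9e-05). Its probe set belongs to a class whose probes may also match related transcripts.

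MVD, the decarboxylase that yields isopentenyl diphosphate, rose by 0.34 ± 0.08 (limma adjusted p = 0.0154). Unlike HMGCS1 and IDI1, it moved most in T-ALL1, where control arrays read 6.81 and 6.94 and NBD arrays 7.32 and 7.79. KOPT-K gave 6.43 and 6.51 against 6.91 and 7.01, and CEM 6.74 and 6.13 against 6.78 and 6.78. In DND41 (6.80 and 6.54 against 6.72 and 6.77) and HPB-ALL (6.80 and 6.81 against 6.80 and 6.98) the arrays overlapped. MVD lost its call when the T-ALL1 line or the KOPT-K line was left out, or with the actin difference as a covariate. The RNA integrity of T-ALL1 differed between the peptides, as given above, and its part in this value was not tested beyond that covariate.

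The other genes of these steps moved less. ACAT2, the thiolase that makes acetoacetyl-CoA, rose by 0.19 ± 0.04 (limma adjusted p = 0.00502), most in KOPT-K (0.40) and T-ALL1 (0.34), and was -0.06 in DND41. It was not called without the KOPT-K line or with the actin difference as a covariate. FDPS, which makes farnesyl diphosphate, rose by 0.18 ± 0.03 (limma adjusted p = 0.00303), a call that was lost without the CEM line or the KOPT-K line. MVK, mevalonate kinase, rose by 0.13 ± 0.04 (limma adjusted p = 0.0352), with effects between 0.10 and 0.17 in the 5 lines, and lost its call in 14 of 20 fits that each left out 1 array. PMVK, the next kinase, was -0.08 ± 0.03 with both NBD arrays below both controls in 3 lines, and was not called (limma adjusted p = 0.178). GGPS1, which makes geranylgeranyl diphosphate for protein prenylation, was 0.01 ± 0.03, with a 95% interval of -0.05 to 0.07.

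Along the sterol branch, MSMO1, the methyl sterol oxidase that starts removal of the methyl groups at carbon 4, rose most of all 28 genes. With control and NBD it read 9.66 and 9.72 against 10.78 and 10.65 in CEM, 10.72 and 10.83 against 10.91 and 10.89 in DND41, and 11.20 and 11.09 against 11.46 and 11.49 in HPB-ALL. KOPT-K gave 10.76 and 10.59 against 11.21 and 11.25, and T-ALL1 11.51 and 11.16 against 11.68 and 11.71. The groups did not overlap in any line, and the gap was widest in CEM, at 1.03 on the log2 scale. The mean effect was 0.48 ± 0.04 (1.40-fold; limma adjusted p = 3.3e-05).

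SQLE, squalene monooxygenase, a rate-limiting enzyme of the sterol branch, rose by 0.32 ± 0.03 (limma adjusted p = 4e-05). CEM gave 9.41 and 9.49 with control against 10.21 and 10.15 with NBD, DND41 10.47 and 10.42 against 10.55 and 10.55, and HPB-ALL 11.12 and 11.06 against 11.26 and 11.29. It read 10.97 and 10.87 against 11.34 and 11.24 in KOPT-K and 11.27 and 11.40 against 11.54 and 11.56 in T-ALL1. Every NBD array lay above both controls of its line, by a narrow margin outside CEM and KOPT-K.

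LSS, which closes the sterol rings to give lanosterol, rose by 0.32 ± 0.06 (limma adjusted p = 0.00408). It read 8.18 and 8.41 against 8.80 and 8.96 in CEM, 8.54 and 8.63 against 8.87 and 8.92 in DND41, and 8.86 and 8.95 against 9.07 and 9.01 in HPB-ALL. KOPT-K gave 9.03 and 9.12 against 9.65 and 9.54. In T-ALL1 the control arrays, 9.91 and 9.40, spanned the NBD arrays, 9.70 and 9.70.

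DHCR7 catalyses the last step to cholesterol in one arm of the pathway and rose by 0.45 ± 0.07 (limma adjusted p = 0.00234). CEM gave 7.14 and 7.46 against 8.05 and 8.17, HPB-ALL 8.01 and 7.77 against 8.28 and 8.20, and DND41 7.97 and 8.03 against 8.31 and 8.02. KOPT-K gave 8.54 and 8.06 against 8.97 and 8.83, and T-ALL1 9.38 and 9.00 against 9.46 and 9.55. Only DND41 overlapped, where 1 NBD array lay between the controls.

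NSDHL, a dehydrogenase in the removal of the methyl groups at carbon 4, rose by 0.28 ± 0.04 (limma adjusted p = 0.000592), and SC5D, a desaturase near the end of the pathway, by 0.26 ± 0.04 (limma adjusted p = 0.000838). HSD17B7, the ketoreductase that works beside NSDHL, rose by 0.22 ± 0.05 (limma adjusted p = 0.0131), but a near-identical pseudogene and a shared-probe probe set leave its source uncertain, and the call was lost without the CEM or the KOPT-K line and with the actin covariate. EBP, a sterol isomerase, was 0.16 ± 0.05 with a higher mean in each of the 5 lines and missed the threshold (limma adjusted p = 0.0539). TM7SF2, a sterol reductase, was 0.06 ± 0.05, between -0.15 in HPB-ALL and 0.27 in KOPT-K.

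**Figure D2:**
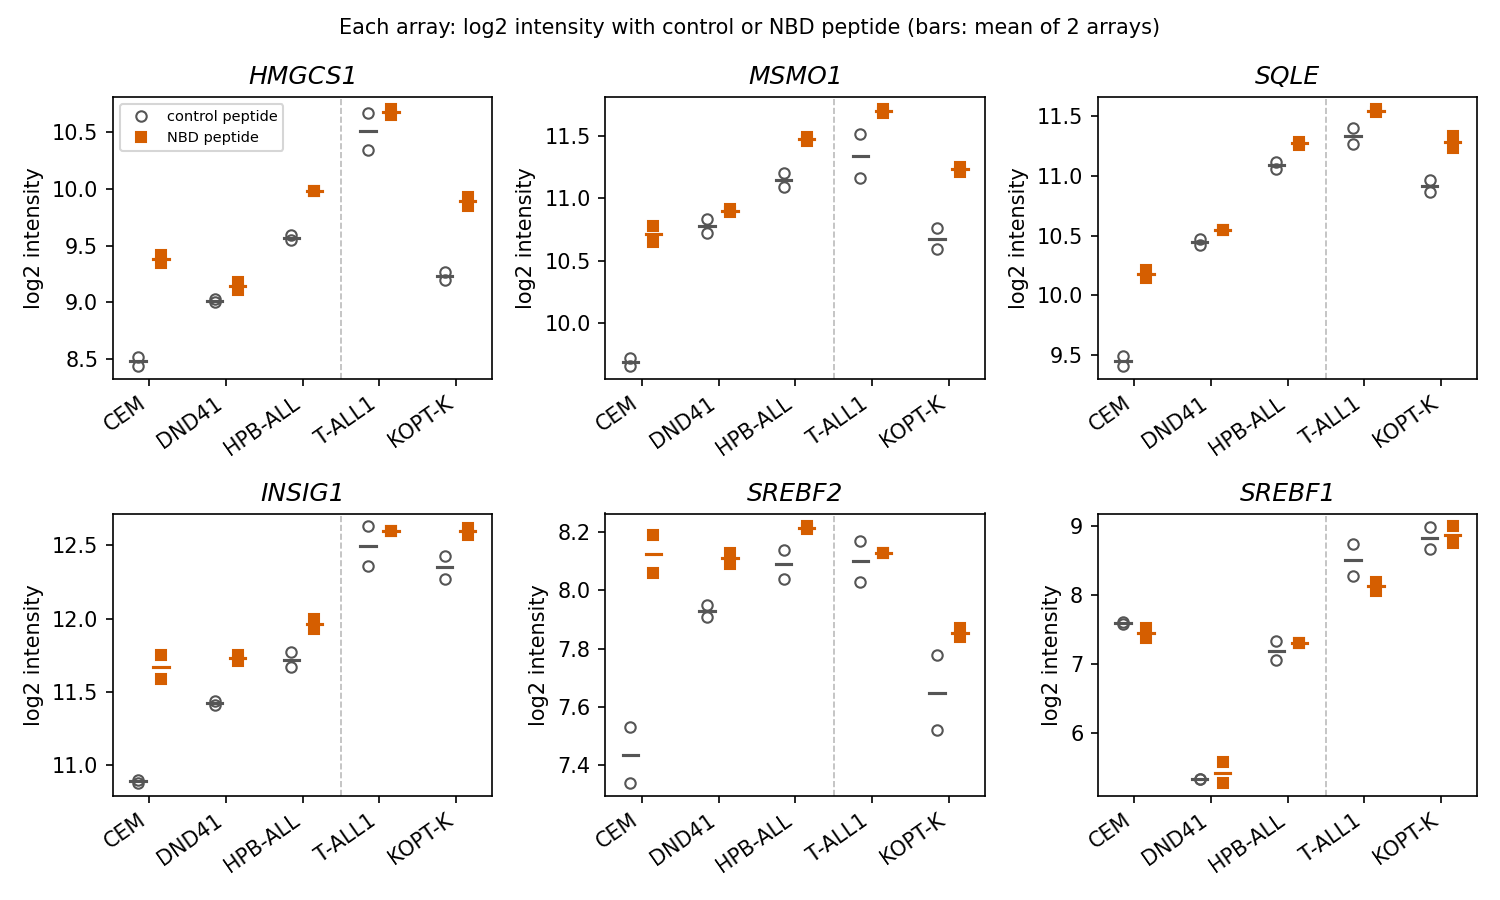
Log2 intensity on each array for 6 genes, by line, with control peptide (open grey circles) or NBD (orange squares); bars are means of 2 arrays, and the dashed line parts the 2 sets of columns, across which levels are not compared. HMGCS1, MSMO1, SQLE, INSIG1 and SREBF2 are shifted up most in CEM, and SREBF1 is not.

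Among the regulators, the SREBP factors and the INSIG proteins each split into a gene that rose and a relative that did not pass the test. INSIG1, which retains SCAP in the endoplasmic reticulum and is itself a target of SREBP, rose by 0.34 ± 0.04 (limma adjusted p = 0.000248). CEM gave 10.90 and 10.88 against 11.75 and 11.59, DND41 11.44 and 11.41 against 11.71 and 11.75, and HPB-ALL 11.77 and 11.67 against 11.93 and 12.00. KOPT-K gave 12.43 and 12.27 against 12.57 and 12.62, and T-ALL1 12.63 and 12.36 against 12.60 and 12.60, the only line with overlap. INSIG2, its relative that sterols regulate differently, read 9.76 and 9.87 against 9.83 and 9.85 in CEM, 9.73 and 9.76 against 9.74 and 9.79 in DND41, and 10.24 and 10.19 against 10.25 and 10.20 in HPB-ALL. It read 9.60 and 9.71 against 9.75 and 9.81 in KOPT-K and 9.92 and 9.75 against 9.73 and 9.85 in T-ALL1. INSIG2 arrays overlapped in 4 of 5 lines, and its mean effect was 0.03 ± 0.03 with a 95% interval of -0.04 to 0.10. The effect on INSIG1 exceeded that on INSIG2 by 0.31, in 5 of 5 lines (exact two-sided permutation test within lines, p = 0.000772, adjusted over the 2 pairs p = 0.00154).

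SREBF2, which encodes the SREBP form that chiefly serves cholesterol synthesis, rose by 0.25 ± 0.04 (limma adjusted p = 0.00264). It read 7.34 and 7.53 with control against 8.06 and 8.19 with NBD in CEM, 7.95 and 7.91 against 8.13 and 8.09 in DND41, and 8.14 and 8.04 against 8.22 and 8.21 in HPB-ALL. KOPT-K gave 7.52 and 7.78 against 7.87 and 7.84, and T-ALL1 8.17 and 8.03 against 8.13 and 8.13. The groups were apart in 4 lines, by a wide gap only in CEM, and without the CEM line SREBF2 was not called. SREBF1, which chiefly serves fatty acid synthesis, read 7.60 and 7.58 against 7.38 and 7.52 in CEM, 5.33 and 5.34 against 5.58 and 5.28 in DND41, and 7.05 and 7.33 against 7.31 and 7.31 in HPB-ALL. It read 8.66 and 8.98 against 8.99 and 8.75 in KOPT-K and 8.73 and 8.27 against 8.05 and 8.19 in T-ALL1. SREBF1 lay lower with NBD in CEM and T-ALL1 and overlapped elsewhere, with a mean of -0.05 ± 0.07 (limma adjusted p = 0.743). The effect on SREBF2 exceeded that on SREBF1 by 0.30 (exact two-sided permutation test within lines, p = 0.009, adjusted over the 2 pairs p = 0.009), from 0.83 in CEM to 0.00 in HPB-ALL. With the mean of all probe sets of each gene that difference was 0.11 and did not pass (exact permutation test, adjusted p = 0.214).

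The remaining regulators did not pass the test. SCAP, the escort protein, was -0.11 ± 0.05 (95% interval -0.22 to -0.01; limma adjusted p = 0.196), and the proteases MBTPS1 and MBTPS2 were -0.07 ± 0.04 and -0.05 ± 0.03. Of the transport genes, STARD4, a cytosolic sterol carrier, rose by 0.18 ± 0.03 (limma adjusted p = 0.00406), most in KOPT-K (0.39) and CEM (0.33), and was -0.06 in DND41. Its call was lost without the KOPT-K or the CEM line. NPC1 and NPC2, which pass cholesterol out of lysosomes, were 0.03 ± 0.04 and 0.09 ± 0.03 (limma adjusted p = 0.0823 for NPC2). SOAT1, which esterifies cholesterol for storage, was -0.07 ± 0.07.

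The size of the response differed among the lines. In CEM 11 of the 28 genes were called higher, beside 0.392% of all genes tested, and in KOPT-K 7, beside 0.892%. T-ALL1 had 3 (ACAT2, MVD and NSDHL; 1.15% of all genes), HPB-ALL 1 (IDI1; 0.138%) and DND41 0 (0.733%), and none of the 28 was called lower in any line. Of all genes tested, 0.74% were called lower in CEM, 1.74% in DND41, 0.646% in HPB-ALL, 0.384% in KOPT-K and 2.3% in T-ALL1. At an unadjusted p under 0.05 in the same limma fit, 2 of the 28, LSS and INSIG1, were higher in DND41, and up to 2 were lower in a line. The 11 genes in CEM were HMGCS1 (0.90), IDI1 (0.61), FDPS (0.34), SQLE (0.73), LSS (0.59), MSMO1 (1.03), NSDHL (0.47), SC5D (0.45), DHCR7 (0.81), SREBF2 (0.69) and INSIG1 (0.78). KOPT-K shared HMGCS1 (0.65), IDI1 (0.38), FDPS (0.42), SQLE (0.36) and MSMO1 (0.56) with CEM and added ACAT2 (0.40) and STARD4 (0.39). IDI1 was the only one of the 28 called in 3 lines, as 0.109% of all genes tested were in at least 3. Over all 28 genes the median effect was 0.29 in CEM, 0.26 in KOPT-K, 0.12 in HPB-ALL, 0.09 in T-ALL1 and 0.09 in DND41. Over the 16 genes called on average it was 0.53 in CEM, 0.38 in KOPT-K, 0.18 in HPB-ALL, 0.18 in T-ALL1 and 0.12 in DND41. Among these 16 CEM had the largest effect of the 5 lines for 11, and DND41 the smallest for 12. The 16 were chosen by an average that includes CEM, so medians and ranks over them favour a line with large effects. Leaving out any 1 CEM array left 6 or 7 of the 11 calls in CEM, and leaving out any 1 KOPT-K array left 2 to 4 of the 7 in KOPT-K. In T-ALL1 the calls of ACAT2, MVD and NSDHL were each lost without the first control array, and also without either NBD array. That control array had the highest actin 3' to 5' difference of all arrays, 3.16, against 2.05 on the second control array. The part of RNA integrity in these calls was not tested beyond the actin covariate.

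**Figure D3:**
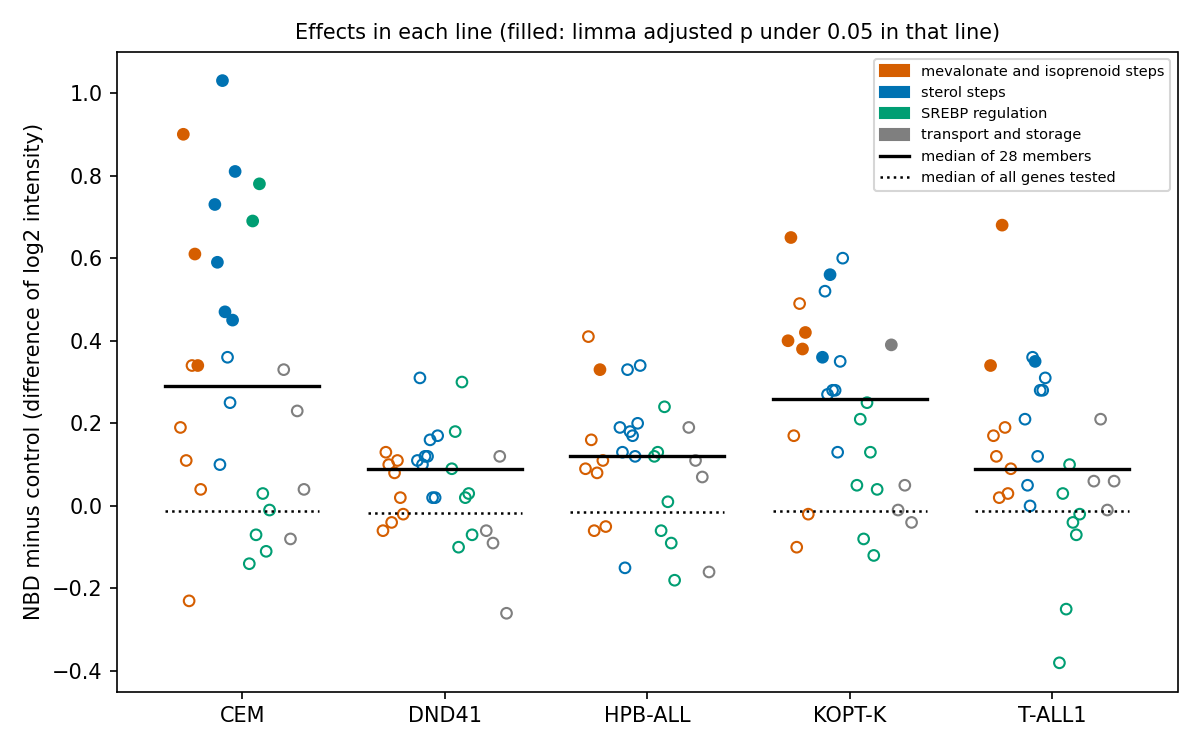
NBD effect (difference of log2 intensity) of each of the 28 genes in each line, coloured by role; filled circles passed the test in that line, solid bars are medians of the 28 genes and dotted bars medians of all genes tested. CEM holds 11 filled circles and DND41 none, and the 28-gene median lies above the all-gene median in each line.

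The difference between lines was tested directly. A moderated F-test over the 5 effects called 3 of the 28 genes, HMGCS1 and SQLE (limma adjusted p = 0.02 for both) and MSMO1 (limma adjusted p = 0.0258), beside 1.83% of all genes tested. Line against line, a comparison added after the values were seen, the NBD effect was larger in CEM than in DND41 for HMGCS1 (by 0.77 ± 0.13), MSMO1 (0.90 ± 0.14), SQLE (0.63 ± 0.10) and IDI1 (0.50 ± 0.09), beside 0.986% of all genes. CEM exceeded T-ALL1 for HMGCS1 (by 0.73), INSIG1 (0.68), SREBF2 (0.66) and SQLE (0.52), beside 0.667%. The other 8 pairs of lines called 0 of the 28 genes in limma, with 3 to 10 of the 28 at an unadjusted p under 0.05 in each. Of all genes tested, CEM differed from HPB-ALL for 0.0798% and from KOPT-K for 0.232%, and DND41 from HPB-ALL for 0.551%, from KOPT-K for 0.689% and from T-ALL1 for 2.39%. HPB-ALL differed from KOPT-K for 0.203% and from T-ALL1 for 0.29%, and KOPT-K from T-ALL1 for 0.885%. The F-test's count of 3 was 11 without the second T-ALL1 control array, 5 without the second KOPT-K control array, 1 without the first CEM control array or the second CEM NBD array, and 0 without the first CEM NBD array or the first DND41 control array.

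The lines also differed in how much of these transcripts they held with control peptide. Among CEM, DND41 and HPB-ALL 24 of the 28 genes differed in level, beside 61.9% of all genes tested, and between T-ALL1 and KOPT-K 19 of 28, beside 54.2%. T-ALL1 was higher than KOPT-K for 17 of those 19, a direction that was not counted over all genes tested. The actin 3' to 5' difference of the control arrays was 2.60 in T-ALL1 and 0.94 in KOPT-K. Line and RNA integrity cannot be told apart in this count. CEM had the lowest control level of its set for 17 of the 28 genes, and HPB-ALL the highest for 17. Among the 16 genes called on average these counts were 14 and 12. Such ranks were not counted over all genes tested, so they cannot be called particular to these genes. A low CEM control reading also raises the CEM effect, so the count of 14 is partly built into the choice of the 16. For HMGCS1 the control means were 8.48 in CEM, 9.02 in DND41 and 9.57 in HPB-ALL. The effect and the control level rest on the same control arrays, and whether one bears on the other was not tested. SREBF1 stood far apart in that set, with control means of 5.34 in DND41 against 7.19 in HPB-ALL and 7.59 in CEM (limma adjusted p = 3.17e-08).

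The other probe sets of the members show how far each value rests on 1 probe set. In a fit of all 54613 probe sets that are no controls, the standing probe sets of 15 of the 16 genes were called, all but MVK's (limma adjusted p = 0.136). Of 19 other probe sets of these genes, 10 were called higher and 9 not, 3 of those 9 below the filter value, and 0 of 13 other probe sets of the 12 uncalled genes were called. A further probe set was called for 6 genes, HMGCS1 (0.66), MVK (0.21 and 0.44), IDI1 (0.31), SQLE (0.50, 0.61 and 0.39), DHCR7 (0.45) and INSIG1 (0.44 and 0.50). The SQLE probe set at 0.39 had a mean level of 4.99, just below the filter value (limma adjusted p = 0.0461). The other probe sets of SREBF2 gave 0.08 and 0.07 and were not called. The difference between lines passed for none of the standing probe sets of HMGCS1, SQLE and MSMO1 in this larger fit (limma adjusted p = 0.0509, 0.0731 and 0.06).

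In T-ALL1 the probe sets of HMGCS1, SQLE, MVK and INSIG1 disagreed within each gene. HMGCS1 was 0.17 ± 0.10 at its standing probe set and 1.04 ± 0.21 at the other (limma adjusted p = 0.403 and 0.0151). SQLE was 0.21 at the standing probe set and 1.04, 1.39 and 0.36 at the others, and MVK 0.12 against 0.21, 0.96 and -0.17. INSIG1 was 0.10 against 0.50 and 0.63. So the smaller effects of T-ALL1 given above hold for the standing probe sets. The same is true of the larger effects in CEM than in T-ALL1 for HMGCS1 and SQLE, which reversed at their other probe sets. When each gene is read as the average of its probe sets, 9 members were called higher in T-ALL1 in place of 3. The share of all genes called under that reading is not given here, so the rise cannot be called particular to the members. The actin 3' to 5' difference fell from 2.60 to 1.03 with NBD in this line, and its part in these values was not tested.

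**Figure D4:**
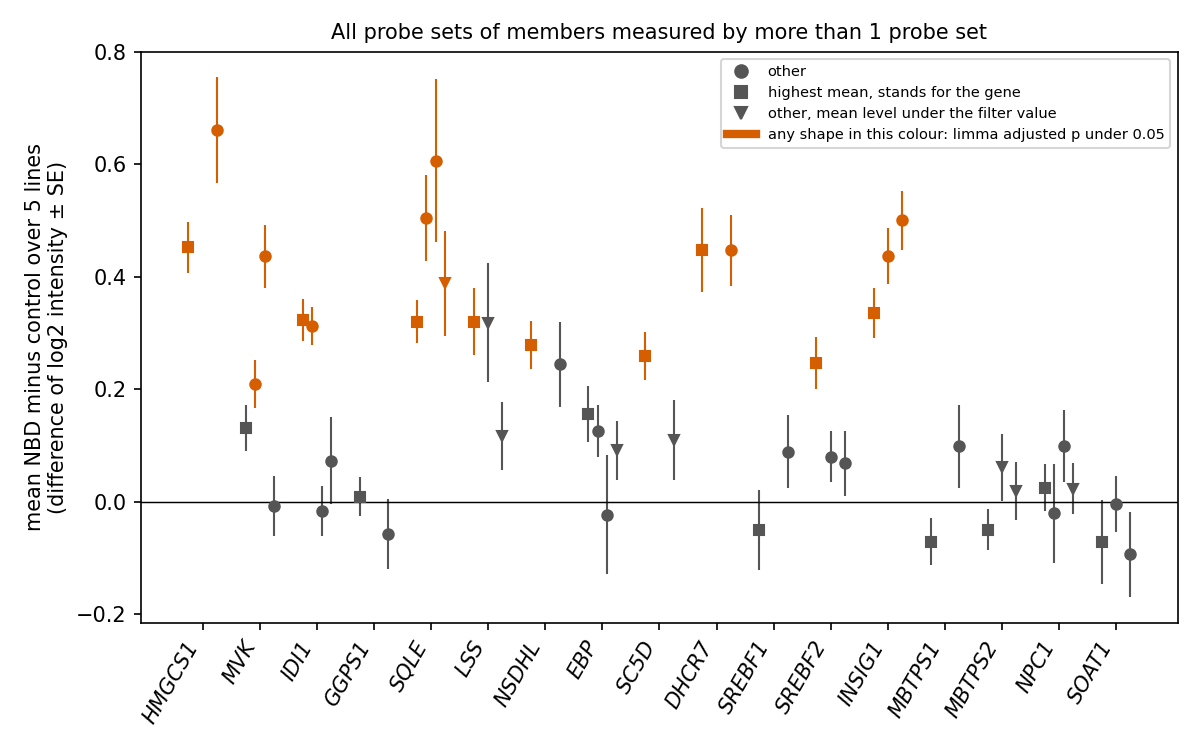
Mean NBD effect over the 5 lines (difference of log2 intensity ± SE) at each probe set of the 17 members measured by more than 1; squares stand for the gene, circles and triangles are the other probe sets, and orange marks those called in the fit of all 54613 probe sets. All 3 probe sets of INSIG1 and all 4 of SQLE are orange, while 1 of the 3 of SREBF2 is. The SQLE triangle lies just below the filter value.

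Neighbouring parts of sterol metabolism did not rise as a group. Of 4 tested enzymes at its margins (LBR, AACS, ACAT1 and ACLY), 0 were called by limma, 0 of them at an unadjusted p under 0.05 either, and the median was -0.01. Of 11 genes that use mevalonate products for ubiquinone, dolichol and protein prenylation, 0 were called on average by limma, with 1 higher and 2 lower at an unadjusted p under 0.05, and the median was -0.03. FNTB was called lower in T-ALL1 (-0.85; limma adjusted p = 0.0417). Among 7 genes of sterol sensing and sterol-regulated degradation, 0 were called higher and 2 lower on average, with 1 higher, TMEM97, at an unadjusted p under 0.05 in limma. TMEM97 was called higher in T-ALL1 (0.40; limma adjusted p = 0.0347). Another of its probe sets was called higher on average in the fit of all probe sets (0.25; limma adjusted p = 0.0159). RNF145, a ubiquitin ligase of the endoplasmic reticulum, fell by 0.24 (± 0.03; limma adjusted p = 8.72e-05), and UBE2G2, a ubiquitin-conjugating enzyme there, by 0.12 (± 0.03; limma adjusted p = 0.0304). In the fit of all probe sets the standing probe set of RNF145 was called (limma adjusted p = 0.00169) and that of UBE2G2 was not (0.141). A second probe set of RNF145, at a mean level of 9.36, was -0.145 and not called there (limma adjusted p = 0.256). Of 9 other sterol transport and esterification genes, 0 were called on average by limma, with 1 higher, OSBP, at an unadjusted p under 0.05. GRAMD1B, 0.00 on average, was called higher in KOPT-K (0.47; limma adjusted p = 0.0357) and lower in T-ALL1 (-0.51; limma adjusted p = 0.018). Its effect differed between lines (moderated F-test, limma adjusted p = 0.02).

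The fatty acid genes that SREBP factors also drive were mixed, with 2 of 7 higher, 1 lower and a median of -0.03. SCD, the stearoyl-CoA desaturase, rose by 0.34 ± 0.03 (limma adjusted p = 4.79e-05), with 0.40 in CEM, 0.34 in DND41 and 0.38 in HPB-ALL, each called in its line. Its other probe sets gave 0.36, 0.38 and 0.39 on average and were not called in the fit of all probe sets (limma adjusted p = 0.0801, 0.116 and 0.146). They gave 0.10, 0.20 and -0.06 in DND41 and 0.08, 0.09 and 0.09 in HPB-ALL. In CEM they gave 0.42, 0.36 and 0.51, and in T-ALL1 0.75, 0.80 and 0.91. FADS2, a fatty acid desaturase, rose by 0.16 ± 0.03 (limma adjusted p = 0.0124), and ELOVL6, a fatty acid elongase, fell by 0.23 (± 0.05; limma adjusted p = 0.00778). FASN, fatty acid synthase, was -0.08 ± 0.06 and ACACA, acetyl-CoA carboxylase, -0.12 ± 0.05, neither of them called. Of 4 tested genes of the LXR sterol response, whose ligands are oxysterols, 1 was called. ABCG1, a sterol exporter, fell by 0.52 (± 0.08; limma adjusted p = 0.00135), by 1.47 in CEM, and was 0.30 in HPB-ALL. Its mean log2 level of 5.62 lay near the filter value of 5.0. The value of -1.47 in CEM rests on 1 probe set, since another of ABCG1 at a mean level of 5.50 gave -0.19 there and -0.23 on average (limma adjusted p = 0.348 in the fit of all probe sets), and 2 below the filter value gave -0.36 and -0.25 in CEM. The former of these was called lower on average (-0.32; limma adjusted p = 0.0487 in that fit).

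Markers of T cells moved with the peptide as well. CD3D, CD7 and LCK, of 7 T cell markers, fell by 0.45, 0.29 and 0.25 on average (limma adjusted p = 1.5e-06, 0.000772 and 0.0025), and 0 rose. None of the 8 tested markers of B cells, myeloid cells, stroma and epithelium was called on average by limma, with CD79A lower at an unadjusted p under 0.05, and CD79A fell by 1.28 in DND41 (limma adjusted p = 0.00538). The part of these shifts in the values of the cholesterol genes was not tested.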

How the data were processed

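Transcripts were measured on 20 Affymetrix U133 Plus 2.0 arrays. Per the labels' protocols, column-isolated total RNA, 20 ng per sample, was amplified with a two-cycle cDNA synthesis kit and labelled with biotin as cRNA. The deposited values are linear intensities for 54675 probe sets. RMA is named, without a version, in the submitters' processing notes. No pseudocount was added before the log2 step done here. Values in the columns of T-ALL1 and KOPT-K (up to 7 decimals) differ in form from those of the other lines (2 decimals), so the arrays may have been normalized in 2 runs. An array has no read depth, and the number of arrays limits the precision.

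For each of 19775 genes 1 probe set stood in, the brightest on average among those to which the platform's table gives 1 gene symbol. A gene was kept if it reached an intensity of 31.96, the median of all values (5.0 on the log2 scale), on at least 2 arrays. Differences, always NBD minus control, were tested by lmFit and eBayes (limma 3.58.1, R 4.3.3) over the 10 groups, with Benjamini-Hochberg adjustment over all 13787 genes at 0.05. Tested were each line's effect, their mean over the 5 lines, a moderated F-test of the difference between lines, control levels within each set of columns, and an exact permutation test of INSIG1 against INSIG2 and SREBF2 against SREBF1. The fit and the permutation test were tested on simulated data. The figures and tables were made with Python 3.11.15, pandas 2.3.3, NumPy 2.4.6 and Matplotlib 3.10.9.

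The members and all gene lists were chosen with earlier results of these data known. Array values are given for the 8 largest mean effects among the genes called, for the gene whose effect differed most surely between lines (lowest p), and for SREBF1, SREBF2, INSIG1 and INSIG2; of each other list at most 3 called genes are named. Genes outside this rule (uncalled or marker genes) were named after their values were seen. Alternatives covered normalization, the filter, the probe sets, the prior, the replicate block, RNA quality, each array and each line left out, and lines as replicates. Promoter sequences are from RefSeq, assembly GRCh38.p14.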

Additional observations from a re-analysis of the deposited data

Results flagged for a closer look

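The NBD effect differed between the 5 lines, by a moderated F-test in limma, for HMGCS1 (adjusted p = 0.02), SQLE (0.02) and MSMO1 (0.0258). At its standing probe set each had its largest effect in CEM and its smallest in DND41. The other probe set of HMGCS1 gave more in T-ALL1 (1.04) than in CEM (0.75). So did the others of SQLE, with 1.04, 1.39 and 0.36 in T-ALL1 against 0.58, 0.49 and 0.05 in CEM. The difference between lines was called at none of these other probe sets. The NBD effect also differed for RNF145 (limma adjusted p = 0.038), which was -0.49 in T-ALL1, -0.32 in KOPT-K, -0.22 in CEM, -0.19 in DND41 and 0.00 in HPB-ALL. FADS2 differed too (limma adjusted p = 0.028), with 0.51 in CEM, 0.31 in KOPT-K, 0.08 in HPB-ALL, 0.07 in DND41 and -0.17 in T-ALL1. ABCG1 (limma adjusted p = 0.0111) was -1.47 in CEM, -0.88 in T-ALL1, -0.59 in KOPT-K, 0.04 in DND41 and 0.30 in HPB-ALL at the probe set that stands for it, and the difference between lines was not called at its 3 other probe sets.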

How the results depend on the processing

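The average effect of none of the 16 genes called changed direction under the alternatives run, while 6 of the 12 genes not called did, none of them past the threshold (limma) where it turned. GGPS1 was -0.02 with the mean of all probe sets, -0.01 without the T-ALL1 line (with lines as replicates too) and with CEM, DND41 and HPB-ALL alone, 0.00 with median centring and 0.00 to 0.02 with 1 array left out. SREBF1 was 0.02 with the mean of all probe sets, 0.09 with the actin covariate, and 0.03 without T-ALL1 (with lines as replicates too) and with those 3 lines alone, where NPC1 was -0.02 in each. MBTPS1 and MBTPS2 were 0.01 with the mean of all probe sets, MBTPS2 and SOAT1 0.01 with T-ALL1 and KOPT-K alone, and SOAT1 0.06 with the actin covariate. The count of 16 genes higher on average was 15 to 17 when 1 array was left out. It was 13 with the actin covariate (ACAT2, MVD and HSD17B7 lost), 11 without the CEM line (MVK, FDPS, HSD17B7, SREBF2 and STARD4 lost) and 11 with CEM, DND41 and HPB-ALL alone (ACAT2, MVK, MVD, HSD17B7 and STARD4 lost). Without the KOPT-K line it was 10 (ACAT2, MVK, MVD, FDPS, HSD17B7 and STARD4 lost) and with T-ALL1 and KOPT-K alone 0. With the lines as replicates it was 0, with a trended and robust prior there 1 (DHCR7), and without the T-ALL1 line there 0, the last pair chosen after seeing the data. The count lower on average was 0 to 1 with 1 array left out, MBTPS1 being called lower without the first KOPT-K control array. The replicate numbers do not pair the arrays (correlations of same-numbered deviations of -0.28 to 0.14). With the replicate block the average count was 15, MVK being lost, the counts were 6 in CEM, 1 in KOPT-K, 0 in HPB-ALL and 0 in T-ALL1, and 0 genes differed between lines. Fitted on the arrays of that line alone, CEM, KOPT-K, HPB-ALL and T-ALL1 each gave 0. With quantile normalization DND41 gave 1 and HPB-ALL 2, and with a trended and robust prior DND41 gave 1, HPB-ALL 2, T-ALL1 7 and the difference between lines 8. Median centring gave 0 in HPB-ALL and 1 in T-ALL1, no filter on low values gave 0 in both, and the mean of all probe sets 0 in HPB-ALL and 9 in T-ALL1. With 1 array left out, the counts higher ranged from 6 to 12 in CEM, 0 to 1 in DND41, 0 to 3 in HPB-ALL, 2 to 9 in KOPT-K and 0 to 6 in T-ALL1. The count lower in T-ALL1 ranged from 0 to 2, reaching 2 without the second control array, and the count that differed between lines from 0 to 11. HPB-ALL gave 3 without either T-ALL1 control array and 0 without any other single array. SREBF2 minus SREBF1 was 0.11 with the mean of all probe sets. Fewer arrays or more genes tested are part of several of these alternatives, and the cause of the other changes was not tested. Low signal limits SREBF1 in DND41 and ABCG1, whose levels lie near the filter value.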
